A study of Rattus norvegicus with 20 samples.

Results

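The Krüppel-like factors (KLF) and the CCAAT/enhancer-binding proteins (C/EBP) examined here were Klf2, Klf4, Klf9, Klf10, Klf15, Cebpa, Cebpb and Cebpd, which are 8 of the 14217 genes named by the array's annotation. The genes were selected by family with earlier values of the same arrays in view, the difference of mean log2 values between the groups included. The array carries 22 probe sets annotated to exactly 1 of these symbols. For each gene the main value is the probe set with the highest mean over all 20 arrays, and the other probe sets of the gene are given beside it.

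The tissue was the central amygdala, a largely GABAergic nucleus, from rats of the P (alcohol-preferring) line, which was bred to drink ethanol by choice. The ethanol group was 10 P rats with access to 15 & 30% ethanol in adolescence, and the water group was 10 P rats that had water only. Each animal gave 1 array, and both groups share the P background, so the line itself is not a contrast here. The labels give no sex, no dose drunk and no interval between the last drink and the dissection.

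KLF proteins bind GC-rich and CACCC-type DNA through zinc fingers near their carboxyl end, and C/EBP proteins bind DNA as dimers through a basic leucine zipper. In brain, several of them are early targets of hormones or of neuronal activity. KLF9 is induced by glucocorticoid and thyroid hormone in neurons, and KLF15 is a direct glucocorticoid receptor target that drives amino acid breakdown. KLF2 and KLF4 hold the vascular endothelium in a quiescent, anti-inflammatory state, and KLF10 was found as a transcript induced early by TGF-beta. C/EBP-alpha directs liver, fat and myeloid differentiation, C/EBP-beta is induced by cyclic AMP and by inflammation and takes part in memory formation, and C/EBP-delta is an acute phase factor also found in astrocytes.

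The promoter windows of Klf15, Cebpb and Klf9 are shown because both families are known for promoters that respond to hormones and cyclic AMP. They are also the windows that hold the motif TGACG, which was added after the windows had been read. The windows of Klf4 and Cebpa, which are not shown, hold no TGACG, so the display does not present it as a shared motif. Each window runs from 250 bases before to 50 bases after the annotated start, in the RefSeq table of build GRCr8, on the plus strand, 5′ to 3′. They lie at chr4:124522765-124523064 for Klf15, chr3:176816755-176817054 for Cebpb and chr1:230126396-230126695 for Klf9. Capitals mark every match, on either strand, to the motif TGACG, to the GC box GGGCGG, to the box CACCC or to the box CCAAT, and neighbouring matches that overlap run together.
Klf15: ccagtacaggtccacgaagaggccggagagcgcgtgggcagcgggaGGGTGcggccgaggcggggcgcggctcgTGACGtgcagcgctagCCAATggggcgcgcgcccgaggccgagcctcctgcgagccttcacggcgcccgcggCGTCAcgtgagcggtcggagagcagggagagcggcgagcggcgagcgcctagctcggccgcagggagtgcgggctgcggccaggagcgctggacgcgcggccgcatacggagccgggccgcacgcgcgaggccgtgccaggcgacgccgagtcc
Cebpb: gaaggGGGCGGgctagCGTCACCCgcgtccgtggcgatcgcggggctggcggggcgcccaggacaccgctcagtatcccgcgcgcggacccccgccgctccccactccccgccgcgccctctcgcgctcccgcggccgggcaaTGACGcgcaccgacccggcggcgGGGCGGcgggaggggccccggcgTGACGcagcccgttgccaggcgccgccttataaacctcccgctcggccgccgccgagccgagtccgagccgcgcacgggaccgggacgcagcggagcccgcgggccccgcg
Klf9: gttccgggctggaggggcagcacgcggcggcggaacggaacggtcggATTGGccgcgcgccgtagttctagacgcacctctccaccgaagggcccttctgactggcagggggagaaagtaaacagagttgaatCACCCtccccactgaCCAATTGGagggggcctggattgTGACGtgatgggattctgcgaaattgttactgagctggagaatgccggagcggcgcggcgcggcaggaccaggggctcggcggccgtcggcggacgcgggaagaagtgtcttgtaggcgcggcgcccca

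A window was given for Klf4, Klf9, Klf15, Cebpa and Cebpb, which is 5 of the 8 genes. The window of Cebpb was 81% G or C and that of Klf15 was 77.3%, at the 99.3rd and the 98.1st percentile of 33469 rat promoter windows whose median was 51.7%. The window of Klf9 was 65.3%, at the 84.6th percentile. The short cyclic AMP response motif TGACG, which was added after the windows had been read, occurred in 3 of the 5 windows, with 3 matches in Cebpb, 2 in Klf15 and 1 in Klf9. It occurred in 21.2% of all windows. That share is not a like comparison, since TGACG contains CG and these 3 windows are richer in G and C than most. The full palindrome TGACGTCA occurred in 0 of the 5, against 1.83% of all windows.

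The TGTTCT arm of the glucocorticoid receptor site was in 0 of the 5 windows and in 20.7% of all windows, and the full receptor site was in 0 and in 0.439%. The CACCC box was in 4 of the 5 windows (54.9% of all), the GC box GGGCGG in 2 (33.1%), CCAAT in 2 (37.5%) and the C/EBP-type motif TTGCNNAA in 0 (10.6%). These matches are letters in a short window and show neither a bound site nor the lack of one elsewhere in the gene.

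The arrays were alike in depth of signal, with medians of 7.92 to 7.97 on the log2 scale and pairwise correlations of 0.977 to 0.997 over the probe sets other than controls. Ethanol animal 5 and water animals 15 and 18 stood apart, each with a mean correlation under 0.990 with the other arrays, and relations that passed with them and not without them are given both ways. All 10 markers of central amygdala neurons passed the filter on low values, and their mean was 12.10 ± 0.27 in ethanol animals and 12.01 ± 0.31 in water animals (SD, n = 10 each). Oligodendrocyte markers averaged 12.65 ± 0.46 in ethanol animals and 13.01 ± 0.35 in water animals (SD, n = 10 each), and 8 of 8 measured markers were lower with ethanol, against 42.2% of all probe sets tested. In the 3 runs of the accession order, described below, their mean differed by -0.37, -0.71 and 0.38, so the sign turned in the last run. Choroid plexus and ependyma markers averaged 7.82 ± 1.36 in ethanol animals, with a range of 6.60 to 11.13, and 9.13 ± 1.44 in water animals, with a range of 6.95 to 11.31 (SD, n = 10 each), and 5 of 5 were lower with ethanol. The part of these cell types in the differences below was not tested, except where a value adjusted for a marker score is given. Precision is limited by the number of arrays.

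The comparison of ethanol with water asks about transcripts of this nucleus after drinking in adolescence. The mean of Klf2 was higher with ethanol and those of Klf15, Cebpb and Cebpd were lower, each by a small amount, and none was called. The signs of Klf2 and Cebpd were not the same in all runs of the accession order, described below. The main probe sets of 7 of the 8 genes passed the filter. limma called 0 of these 7 at an adjusted p under 0.05, against 4 of 18625 probe sets in all (0.0215%), and their adjusted p-values ran from 0.284 to 0.742. The 4 genes named above are those of the 7 with an unadjusted limma p under 0.05, against 12.8% of all probe sets tested. Lower means with ethanol were found for 5 of the 7, against 42.2% of all, and the median log2 difference was -0.14 among the 7 and 0.016 among all. The groups overlapped for each of the 7, and they did not overlap for 0.0268% of all probe sets tested. Since these values helped to choose the genes, they are a description, and nothing is read from their share. In bulk tissue, fewer cells of a type and less RNA per cell cannot be told apart.

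**Figure D1:**
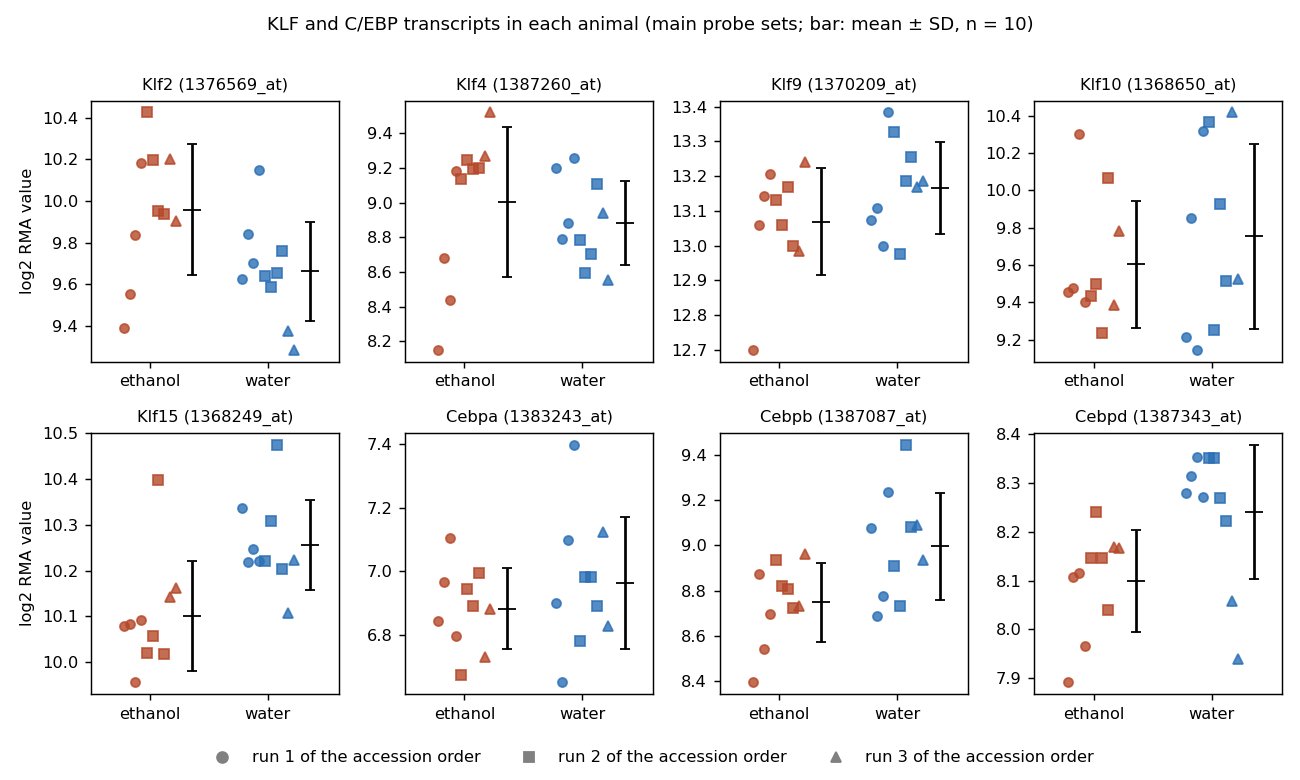
Log2 RMA values of the main probe set of each gene in every animal, ethanol left and water right in each panel, with the marker shape giving the run of the accession order and the bar the mean ± SD (n = 10 each). Of the ethanol animals, 7 lie below every water animal for Klf15, and of the water animals, 7 lie above every ethanol animal for Cebpd, while the groups overlap in every panel.

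Among the glucocorticoid-linked factors, Klf15 had a log2 value of 9.96 at the lowest, 10.08 at the median and 10.40 at the highest ethanol animal, against 10.11, 10.22 and 10.48 in water animals. Apart from ethanol animal 7, the highest of its group, all ethanol animals were under the water mean, and 7 lay below the lowest water animal. The log2 difference was -0.16 (SE 0.051, n = 10 each), 1.11-fold lower with ethanol. The annotation places Klf15 on chromosome 4. With the oligodendrocyte score as a covariate the difference was -0.10 (SE 0.049), over 1.5 times smaller. Its other probe sets, both with means below the filter, differed by 0.01 each (SE 0.061 for 1381395_at and 0.070 for 1381396_s_at).

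Klf9, on chromosome 1, had log2 values of 12.70, 13.10 and 13.24 at the lowest, median and highest ethanol animal, against 12.98, 13.18 and 13.38 in water animals. The groups overlapped over most of their range, and ethanol animal 1 lay below all the others. The difference was -0.10 (SE 0.063), and it was -0.06 without ethanol animal 1. The other Klf9 probe sets, 1387882_at and 1390076_at, differed by 0.12 (SE 0.096) and by less than 0.01 (SE 0.055), so only the main probe set had a lower mean beyond that size.

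Among the C/EBP factors, Cebpb (chromosome 3) had log2 values of 8.40, 8.77 and 8.96 at the lowest, median and highest ethanol animal, against 8.69, 9.004 and 9.44 in water animals. All 10 ethanol animals were under the water mean, and 5 water animals lay above the highest ethanol animal. The difference was -0.25 (SE 0.088), 1.19-fold lower with ethanol, and the array holds 1 probe set for the gene.

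Cebpd, on chromosome 11, had log2 values of 7.89, 8.13 and 8.24 in ethanol animals, against 7.94, 8.28 and 8.35 in water animals, in the same order of lowest, median and highest. Each of the 10 ethanol animals was under the water mean, the highest only just, at 8.2411 against 8.2413. Of the water animals, 7 of 10 lay above the highest ethanol animal, while the 2 lowest were both in the last run. The difference was -0.14 (SE 0.055), 1.10-fold lower with ethanol. Its other probe sets differed by -0.07 (SE 0.10) for 1368813_at, which passed the filter, and by -0.01 (SE 0.042) for 1389828_at.

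Cebpa, on chromosome 1 like Klf9, had a mean of 6.92 over all arrays, at the 37.3rd percentile and so below the filter at the 40th. It averaged 6.88 ± 0.13 in ethanol animals and 6.96 ± 0.21 in water animals (SD, n = 10 each). In the fit without a filter the difference was -0.08 (SE 0.075). The other 4 Cebpa probe sets, all below the filter too, differed by -0.03 to 0.11, so no direction can be given for this gene.

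Among the factors known from endothelium, Klf2 (chromosome 16) had log2 values of 9.39, 9.95 and 10.43 at the lowest, median and highest ethanol animal, against 9.28, 9.65 and 10.15 in water animals. In 8 of 10 ethanol animals it lay above the water mean, and in 4 above the highest water animal. The difference was 0.30 (SE 0.12), 1.23-fold higher with ethanol. The 5 probe sets of Klf2 were not alike. Probe set 1386041_a_at, whose mean was below the filter, differed by 0.40 (SE 0.15) and moved with the main one among animals (Pearson r = 0.63 of deviations from group means, n = 20). The remaining ones, 1375248_at, 1386040_at and 1394068_x_at, differed by -0.03, -0.04 and 0.04 and followed the main one at r = -0.07, -0.42 and 0.11.

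Klf4, on chromosome 5, had log2 values of 8.15, 9.19 and 9.52 at the lowest, median and highest ethanol animal, against 8.55, 8.84 and 9.26 in water animals. The ethanol animals split into 7 above 9.1 and 3, all of the first run, under 8.7. The difference was 0.12 (SE 0.15), and it ranged between 0.06 without ethanol animal 10 and 0.22 without ethanol animal 1. Endothelial markers, given because KLF2 and KLF4 are abundant in those cells, had a mean of 9.22 ± 0.11 in ethanol animals and 9.21 ± 0.12 in water animals (SD, n = 10 each). With the endothelial score as a covariate the difference of Klf2 was 0.29 (SE 0.12).

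Klf10, on chromosome 7, had log2 values of 9.24, 9.47 and 10.30 at the lowest, median and highest ethanol animal, against 9.15, 9.69 and 10.42 in water animals. Its spread was the widest of the 8 genes in the water group (SD 0.49) and the ranges nearly coincided. The difference was -0.15 (SE 0.18), -0.04 without the arrays that stood apart and -0.29 with the oligodendrocyte score as a covariate. limma's interval of the main fit was -0.52 to 0.22.

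**Figure D2:**
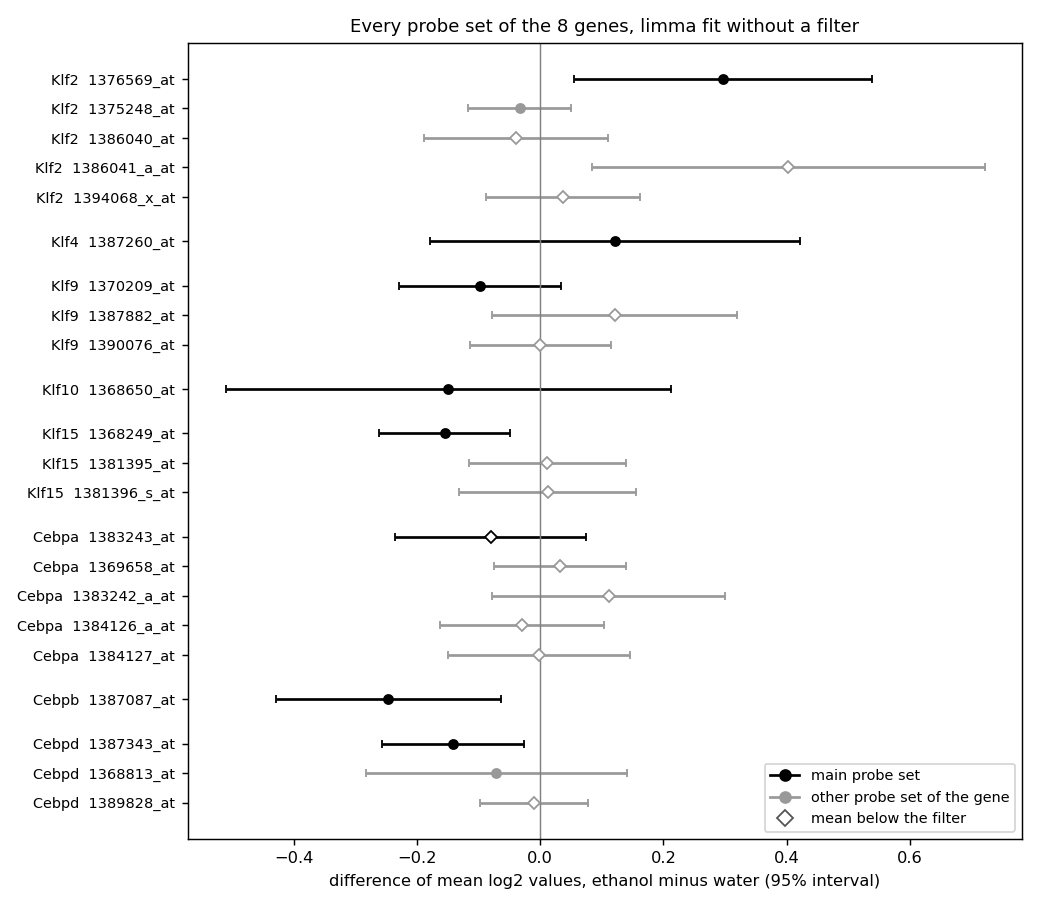
Difference of mean log2 values, ethanol minus water, for each of the 22 probe sets in the limma fit without a filter, with 95% intervals. The main probe sets of Klf2, Klf15, Cebpb and Cebpd have intervals that leave out 0, and the other probe sets of Klf15 and Cebpd have intervals that hold it.

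The accession order falls into 3 runs with 4, 4 and 2 animals per group, which no label names as a batch. Within the runs, Klf15 differed by -0.20, -0.18 and -0.01, Cebpb by -0.32, -0.22 and -0.16, and Klf9 by -0.11, -0.10 and -0.06, each with the same sign in all 3. Klf2 differed by -0.09, 0.47 and 0.72, and Klf4 by -0.42, 0.40 and 0.65, so in the first run both were lower with ethanol. Cebpd differed by -0.29, -0.16 and 0.17, and Klf10 by 0.03, -0.21 and -0.39. The test of a difference between runs, limma's run by treatment interaction, called 0 of 18625 probe sets (0%, with 1343 at an unadjusted p under 0.05), and the limma adjusted p was 0.672 for each of Klf2, Klf4 and Cebpd. Their unadjusted p-values were 0.0120, 0.00285 and 0.00195.

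Relatives and neighbours of these factors were read from lists written with earlier results known. Of 21 other KLF and SP factors, 9 were tested, 4 with higher and 5 with lower means, and limma called 0. Those with the smallest p were Sp1, a general GC box factor, at -0.19 (SE 0.050, limma adjusted p 0.235), and Klf13 at -0.18 (SE 0.056, limma adjusted p 0.282). Of 12 other C/EBP and basic leucine zipper genes, 8 were tested, 4 in each direction, and limma called 0. Nfil3, a repressor of the same DNA elements as the clock factors, differed by -0.29 (SE 0.078) and Dbp, a clock output factor, by 0.22 (SE 0.066), with limma adjusted p-values of 0.239 and 0.258.

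Among genes induced by glucocorticoid, 17 were tested and limma called 1, against 0.0215% of all probe sets tested. Lower means in ethanol animals were found for 15 of the 17, against 42.2% of all, and the median difference was -0.27, against 0.016 among all. Since the list was written with earlier results known, nothing is read from these counts. The called gene was Angptl4, an inhibitor of lipoprotein lipase, at -0.27 (SE 0.046, limma adjusted p 0.0340). That call was lost without any of 12 single animals (limma adjusted p up to 0.104) and under 5 of the 12 other settings, with 0.146 without the arrays that stood apart, 0.0938 with the oligodendrocyte score as a covariate, 0.0582 with no filter, 0.0578 with 1 probe set per gene and 0.0575 with the control probe sets' 3' to 5' ratio added. Pdk4, a kinase that switches off pyruvate oxidation, differed by -0.99 (SE 0.21, limma adjusted p 0.140). Among the amino acid and glucose genes under KLF15, 4 of 6 were tested and limma called 0, with Prodh, the first enzyme of proline breakdown, at -0.16 (SE 0.084) and Gpt2, a mitochondrial alanine aminotransferase, at -0.06 (SE 0.047). The list of genes around KLF9 and thyroid hormone had 4 tested and 0 called, with Nrgn, a postsynaptic calmodulin-binding protein, at 0.18 (SE 0.10) and the corepressor Hr at -0.19 (SE 0.12).

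Of the endothelial genes under KLF2 and KLF4, the adhesion molecules Vcam1 and Icam1 passed the filter and differed by -0.04 and -0.06, while Nos3 and Thbd, the best known KLF2 targets, did not pass it. Of the TGF-beta genes around KLF10, 8 were tested, 4 in each direction, and 0 called, with Smad2 at 0.11 and Skil at 0.07. Of 12 acute phase and inflammatory genes under C/EBP factors, 3 were tested and 0 called, all with lower means, against 42.2% of all probe sets tested. The copper carrier Cp differed by -0.59 (SE 0.20, limma adjusted p 0.287), complement C3 by -0.14 (SE 0.23) and Ptgs2 by -0.03 (SE 0.48). This list too was written with earlier results known, so nothing is read from its count. Of the immediate early genes, 8 were tested, 5 higher and 3 lower, and 0 called, with Ier2 at 0.34 (SE 0.092) and Egr1 at -0.27 (SE 0.15).

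Covariation was read from deviations of each animal from its group mean, so that the difference between the groups does not enter. Over the 28 pairs, 23 correlations were positive, and 0 passed an adjusted p of 0.05 in a two-sided permutation test within groups with Benjamini-Hochberg adjustment over the pairs (8 at an unadjusted p under 0.05). The count at an unadjusted p under 0.05 was 2 without ethanol animal 1, with 17 positive pairs, 4 without water animal 15, with 19 positive, and 5 without water animal 12 or without the arrays that stood apart. By Spearman rho, 15 of the 28 pairs were positive, 0 passed and 4 had an unadjusted permutation p under 0.05. The share of positive pairs over all genes is not given, so nothing is read from these counts. The highest Pearson r was that of Klf2 with Klf4, at 0.67 (permutation p 0.00247, adjusted 0.0692, n = 20), with a Spearman rho of 0.61 (permutation p 0.00677, adjusted 0.178). It was 0.72 in ethanol animals and 0.59 in water animals, 0.71 in the first run and 0.20 in the second, and 0.45 without the 2 animals farthest from the median of Klf2. Among 10158 other genes Klf4 stood at place 30 in likeness to Klf2. With the run as a block the pair reached r = 0.74 and a permutation adjusted p of 0.0118, and with the endothelial score as a covariate r = 0.74 and 0.0353. As single animals were left out, its permutation adjusted p reached 0.398.

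Cebpb moved with Klf9 at r = 0.58 (permutation p 0.00831, adjusted 0.0776, n = 20) and with Klf4 at r = 0.54 (permutation p 0.00767, adjusted 0.0776, n = 20), with Spearman rho of 0.50 and 0.52 (permutation p 0.0307 and 0.0190). The Klf9 relation was 0.67 in ethanol and 0.53 in water animals, 0.65 and 0.38 in the first and the second run, and 0.36 without the 2 farthest animals. The Klf4 relation was 0.77 in ethanol and 0.37 in water animals, 0.73 and 0.15 in the runs, and 0.27 without the 2 farthest animals. Without the 3 arrays that stood apart Klf4 and Cebpb reached r = 0.71 and a permutation adjusted p of 0.0375. As single animals were left out, the permutation adjusted p reached 0.421 for Cebpb with Klf9 and 0.398 for Cebpb with Klf4. Among 10158 other genes, Cebpb stood at place 534 in likeness to Klf9 and at place 241 in likeness to Klf4.

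Klf10 and Klf15 had a negative correlation that did not pass, at r = -0.44 (permutation p 0.0484, adjusted 0.171, n = 20) and Spearman rho -0.55 (permutation p 0.0133, adjusted 0.178). The relation was -0.60 in ethanol and -0.34 in water animals, -0.81 and -0.31 in the runs, -0.24 without the 2 farthest animals and -0.63 without the arrays that stood apart (permutation adjusted p 0.0375). It was -0.30 with the oligodendrocyte score as a covariate (permutation p 0.179) and -0.33 after scaling by cyclic loess (permutation p 0.158). In likeness to Klf10, Klf15 stood at place 9107 among 10158 other genes. In contrast to these pairs, the C/EBP genes shared little over all animals, with r = 0.11 between Cebpb and Cebpd, made of 0.69 in ethanol and -0.21 in water animals. Ethanol animal 1 was lowest of the ethanol animals for Klf2, Klf4, Klf9, Cebpb and Cebpd. Without it, a comparison added after the data had been seen, the ethanol value was 0.40 for Cebpb with Cebpd, 0.50 for Klf2 with Klf4, 0.55 for Klf4 with Cebpb and 0.20 for Klf9 with Cebpb. Whether any pair differs between the groups was not tested.

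**Figure D3:**
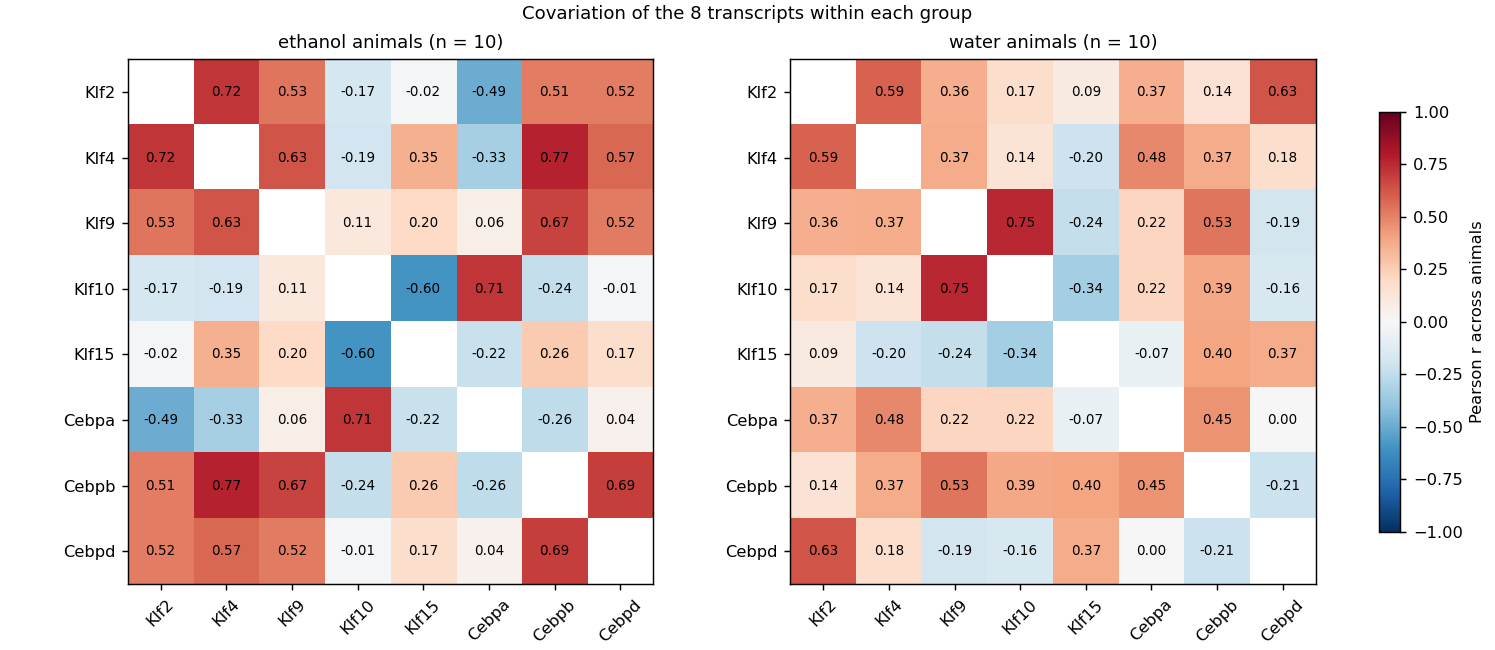
Pearson r between the main probe sets across the 10 ethanol animals (left) and the 10 water animals (right), red for positive and blue for negative values. Klf2, Klf4, Klf9, Cebpb and Cebpd, for which ethanol animal 1 was lowest of the ethanol animals, were grouped after the data had been seen. Their 10 pairs have r between 0.51 and 0.77 in ethanol animals, or between -0.16 and 0.55 without ethanol animal 1. In water animals these 10 pairs have r between -0.21 and 0.63. The other pairs have r between -0.60 (Klf10 with Klf15) and 0.71 (Klf10 with Cebpa) in ethanol animals. The highest r in water animals is 0.75, for Klf9 with Klf10.

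Against the cell type marker scores, 2 of 96 relations passed the adjusted threshold. The share of all genes that follow these scores is not given. Nothing is therefore read from the count, and no relation below is shown to be particular to its gene. Klf10 followed the markers of cortical and basolateral excitatory neurons, which surround the central nucleus, at r = 0.88 (permutation p 2e-05, adjusted 0.00192, n = 20) and Spearman rho = 0.85 (permutation p 2e-05, adjusted 0.00192). The score is the mean of the 4 measured markers Slc17a7, Neurod6, Neurod2 and Lmo3, and it ran between 7.99 and 10.11 in ethanol animals and between 7.78 and 10.03 in water animals. The score's difference between the groups was 0.09. Within the 3 runs it was 0.23, 0.43 and -0.86, so the sign turned in the last run. The relation was 0.85 in ethanol and 0.91 in water animals, 0.86 and 0.97 in the first and the second run, 0.82 without the 2 farthest animals, 0.90 without the arrays that stood apart, and 0.86 to 0.90 as each animal was left out in turn.

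Klf10 was thus high where the excitatory markers were high, in both groups. Ethanol animals 3 and 8 and water animals 15, 16 and 20 held the 5 highest Klf10 values and were among the 6 highest excitatory scores. Klf10 also had the most negative relation of the 8 genes with the central amygdala neuron score, at r = -0.57, which did not pass the adjusted threshold. The part of tissue outside the nucleus in the Klf10 values was not tested beyond these relations.

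Klf9 followed the markers of striatal medium spiny neurons, 7 genes that include Drd1, Drd2, Adora2a and Ppp1r1b, at r = 0.77 (permutation p 0.00035, adjusted 0.0168, n = 20) and Spearman rho = 0.60 (permutation p 0.00730, adjusted 0.175). It was 0.72 in ethanol and 0.83 in water animals, 0.89 and 0.65 in the runs, 0.54 without the 2 farthest animals and 0.76 without the arrays that stood apart (permutation adjusted p 0.0859). Without ethanol animal 1, which was lowest in both measures, it was 0.62 (permutation adjusted p 0.129), and without water animal 14 it was 0.74 (0.0605). Several of these markers are also expressed by neurons of the central nucleus. The striatal score averaged 10.33 ± 0.39 in ethanol animals and 10.13 ± 0.32 in water animals (SD, n = 10 each). It was thus higher with ethanol, while the mean of Klf9 was lower. With the cortical and basolateral score Klf9 had r = 0.52 (permutation p 0.0219, adjusted 0.191), which did not pass. That relation was 0.45 in ethanol and 0.60 in water animals, and 0.57 without the 2 farthest animals.

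For the other genes no marker relation passed. The largest was 0.56 for Klf2, 0.49 for Klf4 and 0.55 for Cebpb, all with the striatal score, 0.60 for Klf15 with oligodendrocyte precursors, -0.48 for Cebpa with oligodendrocytes and 0.35 for Cebpd with astrocytes. Klf15 was at 0.55 with each of the oligodendrocyte, astrocyte and microglia scores, so its glial relations all had the same sign. The endothelial score followed Klf2 at 0.22 and Klf4 at -0.15.

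**Figure D4:**
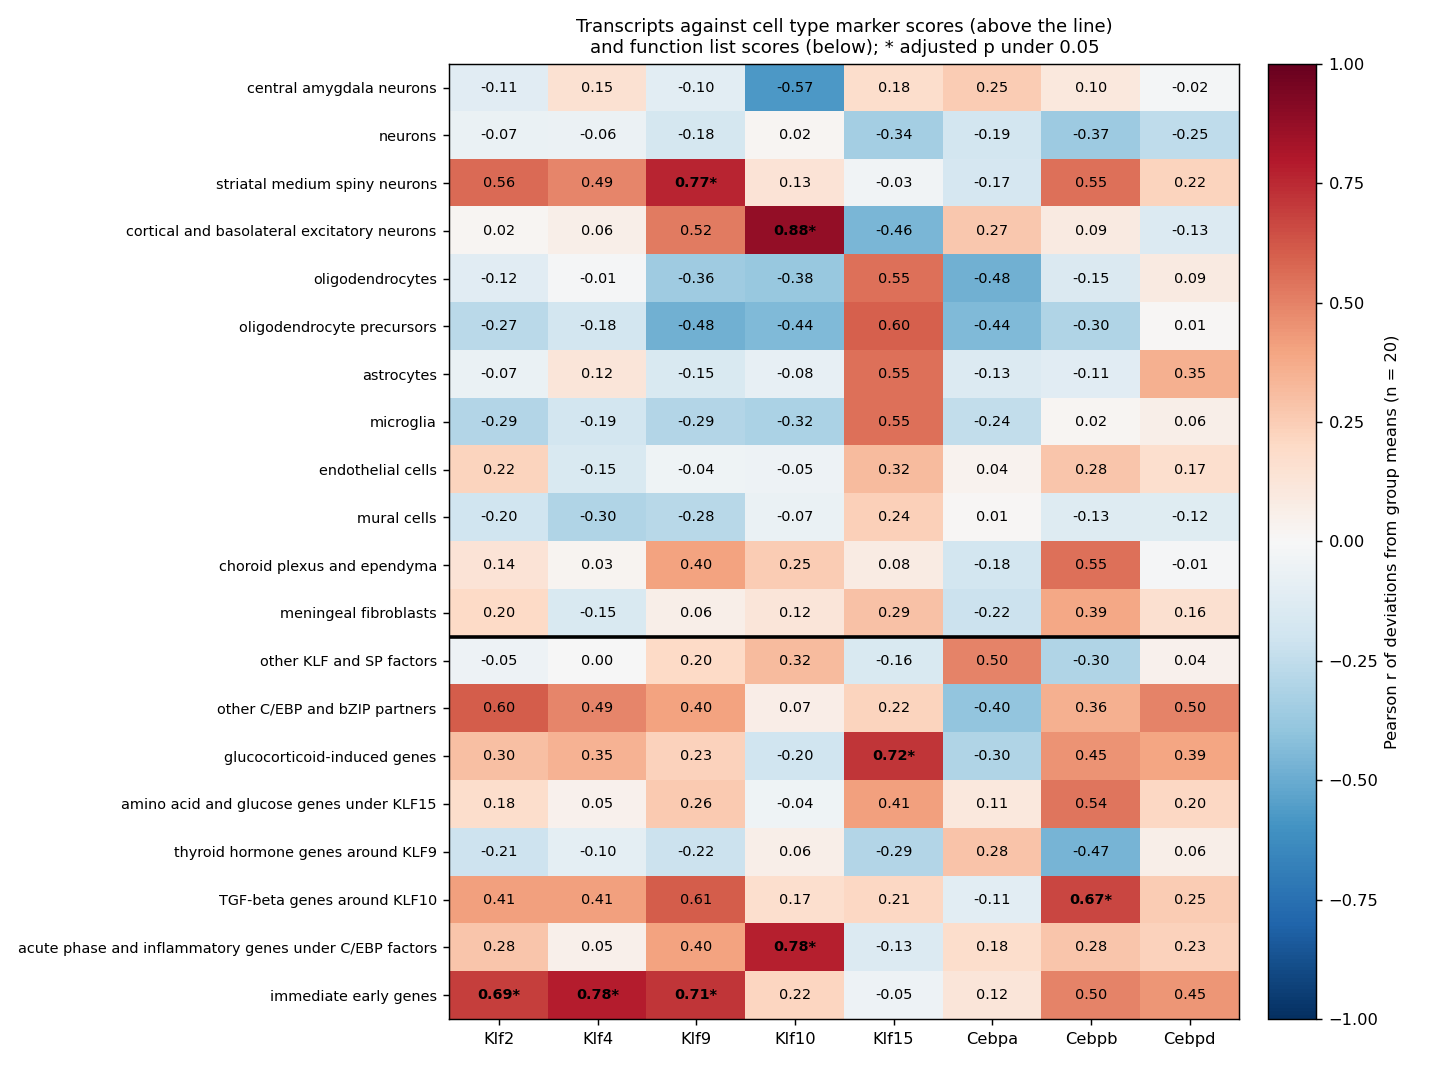
Pearson r of deviations from group means (n = 20) between each gene (columns) and the mean of each marker list (upper rows) or function list (lower rows), with a star at a permutation adjusted p under 0.05. Klf10 with the cortical and basolateral score (0.88) and Klf4 with the immediate early genes (0.78) are the highest in their parts.

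The same relations with the function lists were added after the data had been seen, and 6 of 64 passed. As with the marker scores, the share over all genes is not given, so nothing is read from this count. Klf4 followed the immediate early genes, transcripts such as Fos, Arc and Egr1 that rise within minutes of neuronal firing, at r = 0.78 (permutation p 0.00021, adjusted 0.0106, n = 20) and Spearman rho = 0.70 (permutation p 0.00081, adjusted 0.0259). It was 0.75 in ethanol and 0.89 in water animals, 0.80 and 0.76 in the runs, and 0.59 without the 2 farthest animals. Klf2 followed the same list at r = 0.69 (permutation adjusted p 0.0138) and Klf9 at r = 0.71 (permutation adjusted p 0.0490), with Spearman rho of 0.62 and 0.43 (permutation adjusted p 0.105 and 0.315). Ethanol animal 1 had the lowest score of all, 8.19, and without it the permutation adjusted p was 0.0518 for Klf4, 0.132 for Klf2 and 0.443 for Klf9. Without the arrays that stood apart it was 0.0205 for Klf4, 0.0527 for Klf2 and 0.0867 for Klf9. The Klf9 relation, close to the threshold, no longer passed without any of 15 single animals, while its r stayed between 0.70 and 0.72 for all of them but ethanol animal 1 (0.42).

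Klf15 followed the glucocorticoid-induced genes at r = 0.72 (permutation p 0.00061, adjusted 0.0130, n = 20) and Spearman rho = 0.54 (permutation p 0.0206, adjusted 0.198). The relation was 0.70 in ethanol and 0.75 in water animals, 0.65 and 0.77 in the runs, 0.62 without the 2 farthest animals, and its permutation adjusted p was 0.0605 without water animal 18 and 0.0527 without the arrays that stood apart. The other glucocorticoid-linked factors were lower on this list, with r = 0.23 for Klf9, 0.45 for Cebpb and 0.39 for Cebpd, none of which passed. Klf15 had r = 0.41 with the amino acid and glucose genes, which did not pass either.

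Klf10 followed the acute phase list, of which Ptgs2, C3 and Cp were measured, at r = 0.78 (permutation p 0.00033, adjusted 0.0106, n = 20) and Spearman rho = 0.79 (permutation p 0.00042, adjusted 0.0259). It was 0.78 in each group, 0.89 and 0.86 in the runs and 0.79 without the 2 farthest animals. Ptgs2, a cyclooxygenase also expressed by cortical excitatory neurons, had r = 0.91 with Klf10 by itself. Cebpb followed the TGF-beta list at r = 0.67 (permutation p 0.00143, adjusted 0.0183, n = 20) and Spearman rho = 0.61 (permutation p 0.00713, adjusted 0.114), while Klf10, the factor this list was written for, had r = 0.17. The Cebpb relation was 0.76 in ethanol and 0.62 in water animals, 0.66 and 0.60 in the runs and 0.56 without the 2 farthest animals. Its permutation adjusted p was 0.145 without ethanol animal 1, 0.0703 without water animal 18 and 0.0879 without the arrays that stood apart. Without ethanol animal 1, and likewise without the arrays that stood apart, 2 of the 64 relations passed.

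**Figure D5:**
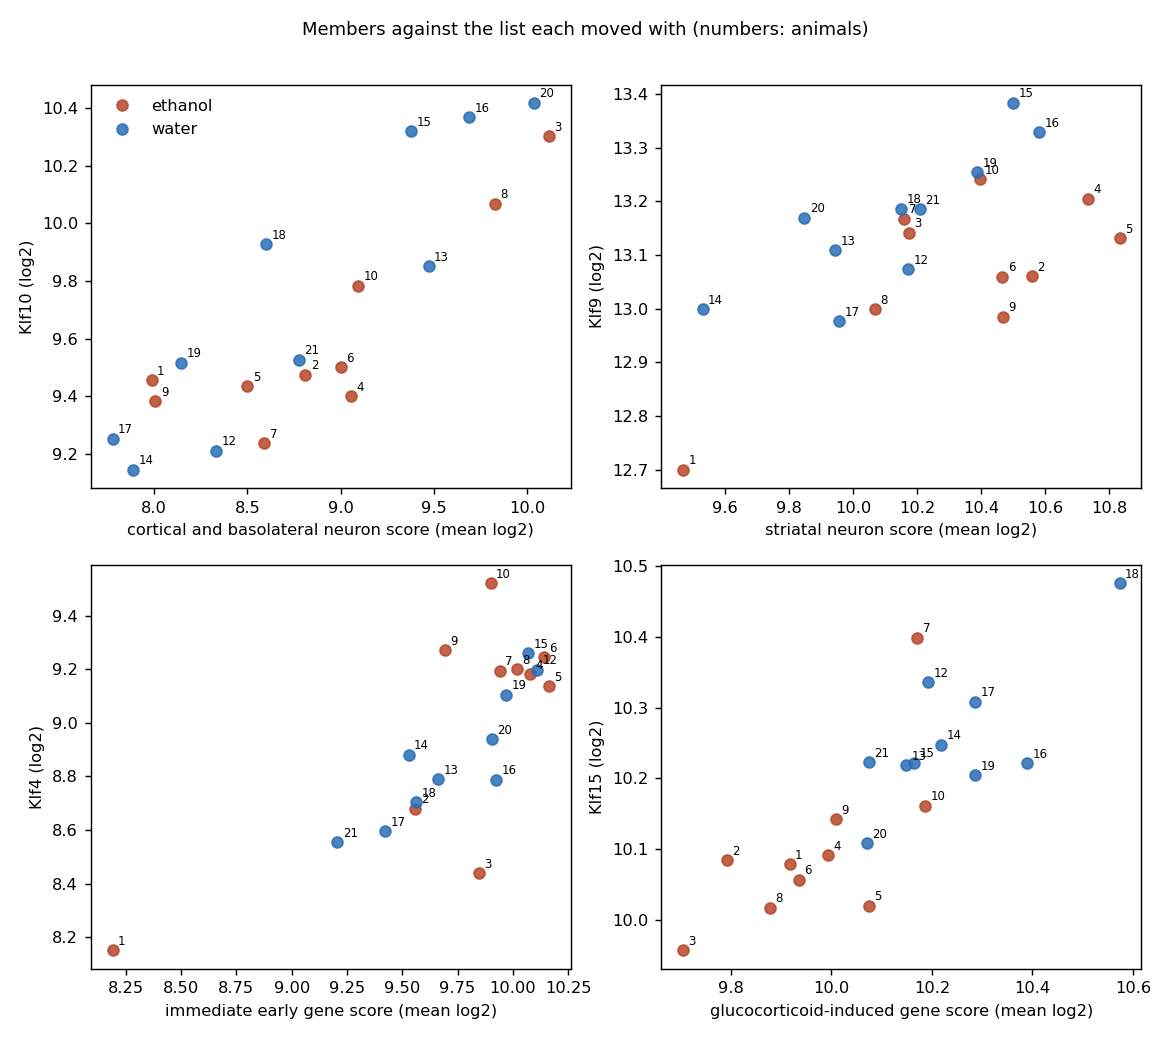
Each point is an animal, numbered, in red for ethanol and blue for water, with the log2 value of the gene on the vertical axis and the mean log2 value of the list on the horizontal axis. Klf10 rises with the cortical and basolateral score in both groups (r = 0.88), and ethanol animal 1 sits at the low end for Klf9 and for Klf4.

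The genes most like each factor, by Pearson r of deviations from group means over 20 animals among the probe sets that passed the filter, are given as a description. They share arrays and dissections, and they carry no p. Klf10 was most like the tyrosine phosphatase Ptpn3 (0.93), Ptgs2 (0.91) and the neuronal pentraxin receptor Nptxr (0.90). Klf9 was most like Phactr1, a regulator of protein phosphatase and actin (0.92), the anoctamin Ano3 (0.90) and the synaptic scaffold Baiap2 (0.87). Klf4 was most like the synaptic scaffold Homer1 (0.86), the survival factor Mcl1 (0.85) and Coq10b, a coenzyme Q-binding protein (0.81).

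Klf2 was most like Depp1, a FOXO target that regulates autophagy (0.85), the angiogenic factor Aggf1 (0.80) and the Mediator subunit Med1 (0.77). Klf15 was most like the endosomal cholesterol carrier Stard3 (0.81), the phosphoinositide phosphatase Inpp5f (0.76) and the copper transporter Slc31a2 (0.75). Cebpb was most like Tsga10 (0.82), the splicing factor Snrnp70 (0.80) and the proteoglycan phosphatase Pxylp1 (0.79). Cebpa was most like Ankh, a pyrophosphate transporter (0.79), Rwdd4 (0.78) and the nuclear receptor coregulator Pelp1 (0.78).

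Cebpd had the lowest likeness at the top of its list, with the lipolysis inhibitor G0s2 (0.67) and the RNA helicases Ddx52 and Ddx42 (0.65 each). Of these, Ddx42 had r = 0.02 in ethanol animals and 0.87 in water animals. The median size of r over all genes was 0.15 for Cebpd, against 0.20 to 0.27 for the other 7 factors.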

How the data were processed

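The deposited values are log2 summaries, 1 per probe set and array, which the authors made with RMA (robust multi-array averaging), per the submitters' processing notes. For the RMA version, the sources used here give none. Per the labels' protocols, total RNA was extracted with Trizol and a column and labelled with biotin by a 3' IVT kit, so signal reports the 3' end of a transcript. Base 2 was taken from the range of the values, 3.82 to 16.16. The table held 31099 probe sets, 57 of them controls, and 20826 had 1 gene symbol.

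Members and gene lists were chosen with earlier results of these data known, and nothing in the comparison of the groups is independent support for them. A filter kept the 18625 probe sets with a mean over the 20 arrays above that of the 40th percentile of non-control probe sets (log2 7.14). The difference, ethanol minus water, came from limma 3.58.1 under R 4.3.3 (lmFit and eBayes, two-sided). Its p-values were adjusted by Benjamini-Hochberg over all kept probe sets, with a threshold of 0.05, and intervals cover 95%. The fit was tested on simulated data. Relations among animals used deviations from group means, with 100000 permutations within groups and adjustment over the 28 pairs, the 96 marker relations or the 64 function list relations. A score is the mean of a list's measured genes, 1 probe set per gene, with at least 3 genes. Permutation p-values are two-sided. Folds are 2 to the power of a log2 difference.

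Named genes were all 8 members, from each list up to 2 with the smallest limma p and any past the threshold, and for each member the 3 with the highest r. Nos3, Thbd and the members of scores were named besides. An array was said to stand apart if its mean correlation with the others was over 3 scaled median absolute deviations below the median. Promoter windows and gene names came from RefSeq tables of GRCr8. Other steps used Python 3.11.15 with pandas 2.3.3, numpy 2.4.6, matplotlib 3.10.9 and scipy 1.17.1. The alternatives were other filters, scalings, variance models, weights, covariates (control probe sets' 3' to 5' ratio, oligodendrocyte and endothelial scores), the run as a block, other probe sets, Spearman rho, each group by itself, and leaving out arrays. The run by treatment interaction and the function list relations were added after the data had been seen.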

Additional observations from a re-analysis of the deposited data

Results flagged for a closer look

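In the 20 groups of 10 values examined (10 probe sets in ethanol and in water animals), 2 held an animal whose gap to its nearest neighbour, as a share of the group's whole range, passed Dixon's 95% critical value, which chance passes in about 1 in 20 groups. Klf9 was 12.70 in ethanol animal 1, and the nearest ethanol animal was at 12.98, a gap of 0.527 of the range. The same animal had the lowest Klf2, Klf4, Cebpb and Cebpd values of the ethanol group and the lowest striatal score, 9.47, of all animals. Klf15 was 10.40 in ethanol animal 7, and the nearest ethanol animal was at 10.16, a gap of 0.537 of the range. Without that animal the difference of Klf15 was -0.19.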

How the results depend on the processing

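limma called 0 of the tested member genes under every alternative run, each animal left out in turn and an adjusted threshold of 0.10 included, with 3 or 4 at an unadjusted p under 0.05. The main probe sets kept their sign under all of them. Over the alternatives other than leaving out single animals, Klf2 ranged between 0.27 and 0.41, Klf4 between 0.08 and 0.24, Klf9 between -0.14 and -0.06, Klf10 between -0.29 and -0.04, Klf15 between -0.17 and -0.10, Cebpb between -0.27 and -0.18 and Cebpd between -0.15 and -0.10. The sign turned in other probe sets: -0.033 in 1375248_at and -0.039 in 1386040_at for Klf2, 0.121 in 1387882_at for Klf9, 0.0113 in 1381395_at and 0.0118 in 1381396_s_at for Klf15, and 0.0320 in 1369658_at and 0.111 in 1383242_a_at for Cebpa. The cause was not tested.

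Over all probe sets, 4 calls became 2 with a filter at the 60th percentile, 23 with array quality weights, 7 with the endothelial score and 0 both with the oligodendrocyte score (2284 at an unadjusted p under 0.05) and with 1 probe set per gene (1278), and ranged between 1 and 8 as single animals were left out. It was 1 without water animal 14, 16, 17 or 18 or ethanol animal 6, 2 without ethanol animal 3, and 8 without water animal 20. The 0 member pairs called became 1 with the run as a block or with the control probe sets' 3' to 5' ratio added, 2 with the endothelial score or without the arrays that stood apart, and 0 to 4 as animals were left out, with 4 without water animal 18. The 2 marker relations called became 1 without the arrays that stood apart or by Spearman rho and 0 in each group by itself, and ranged between 1 and 3, with 1 without ethanol animal 1 or water animal 14. The cause of these changes was not tested.

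No paired analysis was possible because no animal number occurs in both groups. With 10 arrays per group, SEs of 0.051 to 0.18 set what can be seen in the main probe sets, and probe sets below the filter, all 5 of Cebpa among them, were not tested in the main comparison. Nothing in the labels says that arrays of a run were processed together.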
